A study of Homo sapiens with 21 samples.

Results

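The ETS family is a group of transcription factors that share a DNA-binding domain, the ETS domain, which reads a GGAA core. The present account covers 10 of its members in the Ewing sarcoma cell line A673: ETS1, ETS2, ETV1, ETV4, ETV5, ETV6, ELF1, ELF4, GABPA and ELK3. They were chosen by name, as ETS factors other than FLI1 that could bind the same sites, and all 10 were found among the 57820 genes of the deposited table. The study lowered the fusion gene EWS/FLI by RNA interference and then put back one of several versions of it, and its title asks how the EWS portion takes part in binding of GGAA repeats. RNA was sequenced in 21 libraries. Of these, 4 came from cells with EWS/FLI RNAi and the delta 22 mutant of EWS/FLI, 3 from cells with EWS/FLI RNAi and the mut9 mutant, and 5 from cells with EWS/FLI RNAi and wild-type type IV EWS/FLI. A further 5 came from cells with EWS/FLI RNAi and an empty pMSCV-hygro vector, and 4 from cells with RNAi against luciferase and the same empty vector. They are called delta 22, mut9, wild-type, knockdown and control libraries. All cells are of 1 line, all were put through viral infection and 4 days of selection, and the delta 22, mut9 and wild-type cells also carried the knockdown. The labels give no further detail of the mutants.

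EWS/FLI joins the start of EWSR1, which supplies a domain that activates transcription, to the part of FLI1 that holds the ETS domain. In Ewing sarcoma cells the fusion protein is known to activate genes at runs of GGAA repeats and to act at single GGAA sites, where other ETS factors also bind. Most cells express several ETS genes at once, and the proteins differ mainly outside the ETS domain, in their partners, their control by kinases and whether they activate or repress.

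The promoter windows of the members show how common the shared core is. RefSeq windows (build GRCh38.p14, 250 bases before to 50 after a gene's start) were found for 7 of the 10 genes, and none was found for ETS1, ETV4 or ETV5. A GGAA on either strand was present in 95.5% of all 35116 windows, with a median of 3 matches, counting overlaps. GGAAGGAA, the shortest repeat of the core, was on either strand of 3.67% of windows, and CCGGAAGT, a longer ETS consensus, of 4.14%. Of the windows found, 3 are shown: GABPA and ETV1 because they hold a longer word, and ETS2 because it is the member called with delta 22 below. Each runs 5' to 3' on the strand of its gene, and capitals mark GGAA or its reverse complement TTCC.
GABPA, chr21:25734722-25735021, plus strand: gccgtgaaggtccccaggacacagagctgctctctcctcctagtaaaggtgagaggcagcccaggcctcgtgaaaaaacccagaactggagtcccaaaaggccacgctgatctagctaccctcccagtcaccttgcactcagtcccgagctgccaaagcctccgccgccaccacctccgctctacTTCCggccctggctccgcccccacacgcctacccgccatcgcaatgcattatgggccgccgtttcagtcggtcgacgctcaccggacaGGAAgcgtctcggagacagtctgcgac
ETV1, chr7:13990653-13990952, minus strand: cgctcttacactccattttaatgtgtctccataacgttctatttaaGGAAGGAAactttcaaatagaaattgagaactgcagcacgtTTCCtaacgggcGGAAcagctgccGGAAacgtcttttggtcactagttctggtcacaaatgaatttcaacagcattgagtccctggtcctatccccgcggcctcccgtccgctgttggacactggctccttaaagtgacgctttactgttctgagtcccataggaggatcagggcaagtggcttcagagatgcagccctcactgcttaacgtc
ETS2, chr21:38805679-38805978, plus strand: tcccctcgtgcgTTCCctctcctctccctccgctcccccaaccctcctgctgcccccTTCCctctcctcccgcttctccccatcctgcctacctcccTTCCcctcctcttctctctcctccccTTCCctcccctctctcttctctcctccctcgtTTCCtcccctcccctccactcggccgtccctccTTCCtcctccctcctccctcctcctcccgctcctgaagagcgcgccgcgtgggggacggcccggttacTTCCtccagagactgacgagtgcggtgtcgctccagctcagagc
The GABPA window has 2 matches to the core and held CCGGAAGT once, read on the printed strand as ACTTCCGG from position -67. The ETV1 window, 1 of 6 in the table and 1 of 2 overlapping ones that hold GGAAGGAA, has 5 matches, and the word lies near its upstream end. The ETS2 window has 7 matches, all of them TTCC on the printed strand, and neither longer word. The other ETS2 window has 4 matches, 1 of them GGAA and 3 TTCC. Of 2 ELK3 windows, 1 has 8 matches, the most among the members. Of 3 ELF1 windows, 1 has none, and another, not printed, holds GGAAGGAA on the opposite strand. These are matches of letters and not sites shown to be bound.

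Values are the authors' normalized values on a log2 scale. Differences are between group means and are given as difference ± standard error. Adjusted p comes from limma's 2-sided test with Benjamini-Hochberg adjustment over the 18040 genes tested, and a gene is said to have risen or fallen where it was under 0.05. All 10 members passed the filter on low values (a linear value of at least 10 in at least 3 libraries). The p-values measure the spread between these libraries, which the labels number by batch and which come from 1 line. Less RNA per cell and fewer cells holding an RNA cannot be told apart in such bulk samples. The 3 rescues are each compared with the same knockdown libraries, so those differences are not independent of each other. Members and the gene lists below were chosen with earlier results of these data known. Their counts and medians beside those of all genes are therefore descriptions.

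FLI1, which gives the fusion its ETS domain, was the check of the knockdown and of the constructs. Its mean log2 value was 11.27 in delta 22, 10.23 in mut9, 10.47 in wild-type, 9.77 in knockdown and 11.64 in control libraries. It was lower in knockdown than in control libraries within each of the 4 batches that held both, by log2 differences of -2.02 to -1.58. The Ewing sarcoma markers NKX2-2, NR0B1, STEAP1, LIPI, PAX7 and PRKCB had control means between log2 9.66 and 14.29. CD99 was listed at 0 in every library, which is not taken here as absence of its RNA, and the cause was not tested. Of 8 markers of other cell types, PECAM1 had no row, and PTPRC and CDH5 alone reached the filter, with group means of log2 3.42 to 4.49. Relative to knockdown, CDH5 was called higher with wild-type EWS/FLI and delta 22 and PTPRC lower with mut9, and their part in the results was not tested. Knockdown replicate 5 held the highest ETS1 and ETS2 and the lowest ETV1, ETV4, ETV5 and ETV6 of the 5 knockdown libraries. Wild-type replicate 3 held the highest ETS1, ETV6, ELF1 and ELK3 and the lowest GABPA of the 5 wild-type libraries. Results that change without either library are given both ways.

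Knockdown of EWS/FLI raised 6 of the 10 members and lowered 1. ETS1, ELF4, ELF1, ELK3, ETV6 and ETV5 rose, GABPA fell, and ETS2, ETV1 and ETV4 did not pass. Of all 18040 genes tested, 69.5% were called in this comparison, so a count of 7 of 10 is close to the background. By direction, 35.5% of all genes rose and 34% fell, and the median difference of the members was log2 0.66 beside -0.01 over all genes. The groups did not overlap for 6 of the 10 members, beside 59.4% of all genes. Leaving out knockdown replicate 5 raised the count to 8, since ETV1 then passed as well.

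**Figure D1:**
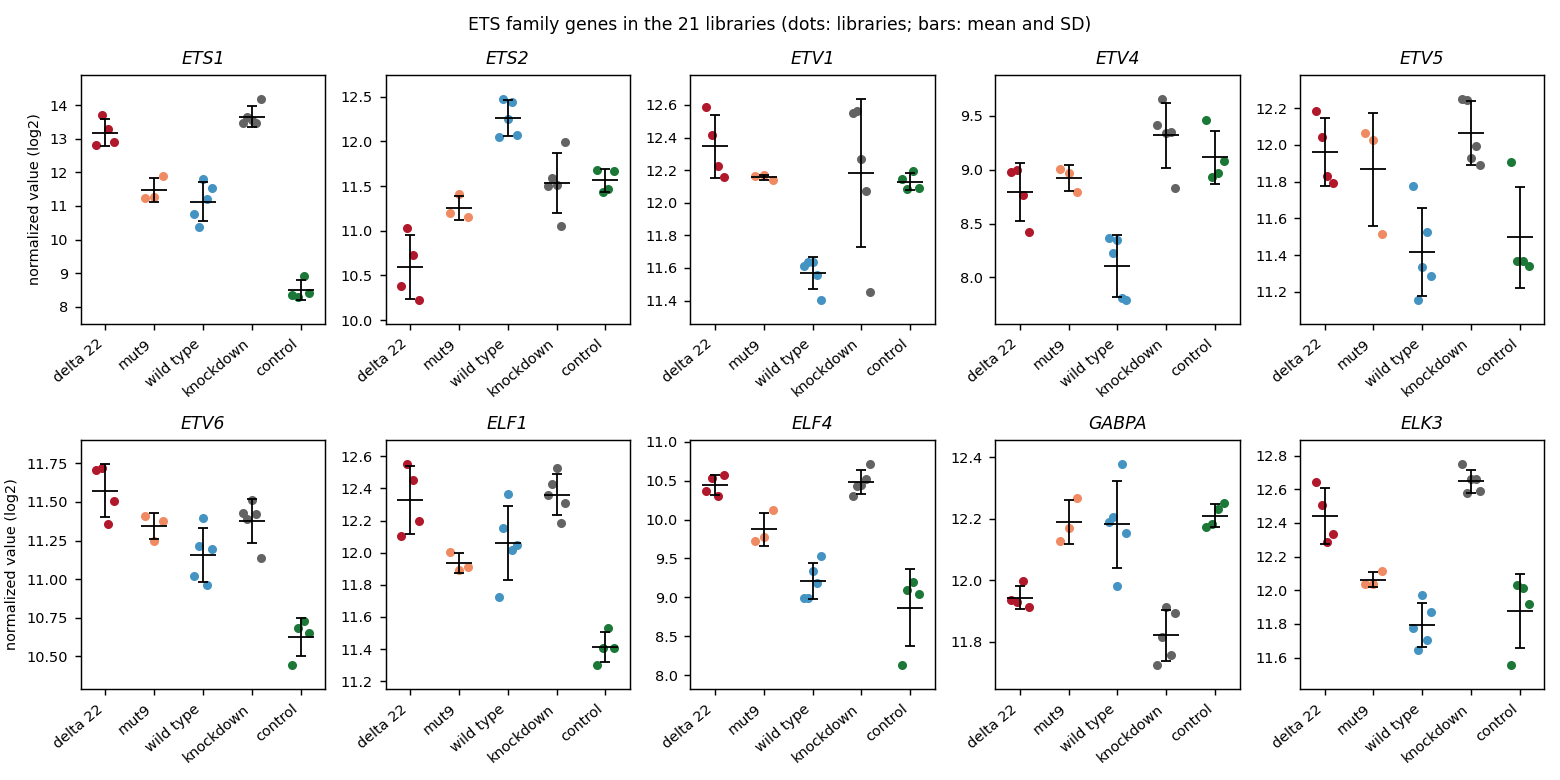
Normalized log2 values of the 10 members in each of the 21 libraries, 1 panel per gene with its own axis; dots are libraries, and black bars give the mean and SD of each group. ETS1 spans log2 8.30 in a control library to 14.19 in a knockdown library, ETS2 is lowest in delta 22 libraries and highest in wild-type libraries, and GABPA is lowest in knockdown libraries.

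ETS1, the founding member of the family and an activator that is itself a target of ERK phosphorylation, changed most. Its log2 values were 12.83, 13.69, 13.29 and 12.90 in delta 22 libraries, 11.24, 11.28 and 11.89 in mut9 libraries, 10.75, 10.37, 11.79, 11.20 and 11.54 in wild-type libraries, 13.46, 13.64, 13.55, 13.46 and 14.19 in knockdown libraries, and 8.36, 8.30, 8.92 and 8.40 in control libraries. The control libraries lay below all others, the knockdown and delta 22 libraries shared the top of the range, and the mut9 and wild-type libraries overlapped in between. The rise with knockdown was log2 5.16 ± 0.25, or 35.8-fold (adjusted p = 1.58e-12, n = 5 and 4). It was the 163rd largest absolute difference of the genes tested, and it was log2 4.63 to 5.79 within the 4 shared batches.

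Wild-type EWS/FLI lowered ETS1 by log2 -2.53 ± 0.24 relative to knockdown (adjusted p = 2.36e-08), and mut9 by log2 -2.19 ± 0.27 (adjusted p = 2.4e-06). With delta 22 the difference was log2 -0.48 ± 0.25 (95% interval -1.01 to 0.04, adjusted p = 0.304). The delta 22 libraries stood above the wild-type libraries (log2 2.05 ± 0.25, adjusted p = 9.04e-07). Mut9 minus wild type was log2 0.34 ± 0.27 (95% interval -0.23 to 0.91, adjusted p = 0.429). Neither rescue brought ETS1 down to the control range, and the wild-type libraries remained 6.21-fold above control (log2 2.63 ± 0.25, adjusted p = 2.73e-07).

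ETS2, the closest relative of ETS1, followed another pattern. Its log2 values were 10.38, 11.03, 10.73 and 10.23 in delta 22 libraries, 11.20, 11.41 and 11.16 in mut9 libraries, 12.05, 12.48, 12.25, 12.44 and 12.07 in wild-type libraries, 11.51, 11.59, 11.52, 11.06 and 11.998 in knockdown libraries, and 11.69, 11.43, 11.47 and 11.67 in control libraries. The wild-type libraries lay above all others and the delta 22 libraries below all others, while knockdown and control libraries overlapped. Knockdown minus control was log2 -0.03 ± 0.16 (95% interval -0.37 to 0.31, adjusted p = 0.883).

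The constructs moved ETS2 to both sides of the knockdown level. Wild-type EWS/FLI raised it by log2 0.72 ± 0.15 (adjusted p = 0.000383), and delta 22 lowered it by log2 -0.94 ± 0.16 (adjusted p = 0.00277). Mut9 minus knockdown was log2 -0.28 ± 0.18 (adjusted p = 0.199). Tested directly, delta 22 libraries were 3.17-fold below wild-type libraries (log2 -1.67 ± 0.16, adjusted p = 3.77e-08) and mut9 libraries 2.01-fold below them (log2 -1.004 ± 0.18, adjusted p = 0.000764). Wild-type libraries also exceeded control libraries (log2 0.69 ± 0.16, adjusted p = 0.00212). Delta 22 was below wild type by log2 -2.21 to -1.45 within each of the 4 shared batches. ETS2 was the member called in delta 22 against knockdown, where 4.5% of all genes were called.

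ETV1, ETV4 and ETV5 form the PEA3 subfamily, activators whose genes are repressed by the capicua protein and rise with ERK signalling, and ETV1 and ETV4 are themselves rare fusion partners of EWSR1 in Ewing sarcoma. ETV4 had log2 values of 8.98, 8.99, 8.77 and 8.42 in delta 22 libraries, 9.01, 8.97 and 8.79 in mut9 libraries, 8.37, 8.23, 8.34, 7.81 and 7.79 in wild-type libraries, 9.42, 9.66, 9.34, 9.35 and 8.83 in knockdown libraries, and 9.46, 8.93, 8.97 and 9.08 in control libraries. The wild-type libraries lay below every other library. Knockdown minus control was log2 0.20 ± 0.17 (adjusted p = 0.288; with array weights 0.36, adjusted p = 0.0217), whereas wild-type EWS/FLI lowered ETV4 relative to knockdown by log2 -1.21 ± 0.16 (adjusted p = 1.94e-06) and left it 2.01-fold below control (log2 -1.01 ± 0.17, adjusted p = 0.000121).

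Delta 22 and mut9 libraries held more ETV4 than wild-type libraries, by log2 0.68 ± 0.17 (adjusted p = 0.00163) and log2 0.82 ± 0.18 (adjusted p = 0.00468). Against knockdown, delta 22 gave log2 -0.53 ± 0.17 (adjusted p = 0.0799) and mut9 log2 -0.39 ± 0.18 (adjusted p = 0.0831). Both passed without knockdown replicate 5, where the differences were log2 -0.65 (adjusted p = 0.0334) and log2 -0.52 (adjusted p = 0.0178). With the batch number as a replicate block, the delta 22 difference was log2 -0.59 (adjusted p = 0.0128), and ETV4 was lower in delta 22 than in knockdown libraries in each of the 4 shared batches.

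ETV1 had log2 values of 12.59, 12.41, 12.22 and 12.16 in delta 22 libraries, 12.16, 12.17 and 12.14 in mut9 libraries, 11.61, 11.64, 11.64, 11.56 and 11.40 in wild-type libraries, 12.55, 12.56, 12.27, 12.07 and 11.45 in knockdown libraries, and 12.15, 12.08, 12.20 and 12.09 in control libraries. Apart from knockdown replicate 5, every library outside the wild-type group lay above the wild-type range. Wild-type EWS/FLI lowered ETV1 relative to knockdown (log2 -0.61 ± 0.15, adjusted p = 0.00118) and to below control (log2 -0.56 ± 0.15, adjusted p = 0.00734). Delta 22 libraries were above wild-type libraries (log2 0.78 ± 0.15, adjusted p = 0.000235), and so were mut9 libraries (log2 0.59 ± 0.17, adjusted p = 0.0201). The mut9 call was lost without mut9 replicate 3 (log2 0.58, adjusted p = 0.07) or 4 (log2 0.58, adjusted p = 0.0677). Knockdown minus control was log2 0.05 ± 0.15 (adjusted p = 0.774), and log2 0.24 (adjusted p = 0.044) without knockdown replicate 5.

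ETV5 had log2 values of 12.18, 12.04, 11.83 and 11.79 in delta 22 libraries, 12.06, 12.03 and 11.51 in mut9 libraries, 11.78, 11.16, 11.33, 11.53 and 11.29 in wild-type libraries, 12.25, 12.25, 11.93, 11.996 and 11.89 in knockdown libraries, and 11.91, 11.37, 11.37 and 11.34 in control libraries. Control replicate 1 reached into the knockdown range, and the other control libraries did not. ETV5 rose with knockdown (log2 0.57 ± 0.15, adjusted p = 0.0018) and fell with wild-type EWS/FLI (log2 -0.65 ± 0.14, adjusted p = 0.000412) to a level whose difference from control was log2 -0.08 ± 0.15 (95% interval -0.38 to 0.22, adjusted p = 0.69). Mut9 minus wild type was log2 0.45 ± 0.16 (adjusted p = 0.0523). It passed with the replicate block (log2 0.55, adjusted p = 0.0028), without mut9 replicate 5 (log2 0.63, adjusted p = 0.0166) and without wild-type replicate 1 (log2 0.54, adjusted p = 0.024). It also passed with array weights (log2 0.53, adjusted p = 0.00375) and with a filter on a mean of at least 100 (adjusted p = 0.0449). Delta 22 libraries lay above wild-type libraries (log2 0.55 ± 0.15, adjusted p = 0.00299).

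Thus the wild-type libraries had the lowest mean of the 5 groups for all 3 PEA3 genes, without overlap with the next group for ETV1 and ETV4 and with overlap for ETV5. The order of the remaining groups was not resolved for ETV1 and ETV4, since neighbouring groups overlapped.

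ETV6, a transcriptional repressor that is a frequent fusion partner in leukaemia, rose with knockdown by log2 0.75 ± 0.10 (adjusted p = 8.7e-07). Its log2 values were 11.71, 11.72, 11.36 and 11.51 in delta 22 libraries, 11.41, 11.25 and 11.38 in mut9 libraries, 11.02, 11.21, 11.40, 10.96 and 11.19 in wild-type libraries, 11.43, 11.39, 11.51, 11.42 and 11.13 in knockdown libraries, and 10.44, 10.68, 10.73 and 10.65 in control libraries. The control libraries lay below all others, and the other 4 groups overlapped with their neighbours. The wild-type difference from knockdown was small (log2 -0.22 ± 0.09, adjusted p = 0.0405). That call was lost with no filter, under both other scalings, with the compared groups only, and without any of knockdown replicates 1 to 4 or wild-type replicates 1, 4 and 5, with log2 -0.23 to -0.17 and adjusted p = 0.0502 to 0.119 when 1 of these libraries was left out. Mut9 minus knockdown was log2 -0.03 ± 0.10 (adjusted p = 0.82). Wild-type libraries remained above control libraries (log2 0.53 ± 0.10, adjusted p = 0.000253). The delta 22 mean was above the wild-type mean (log2 0.42 ± 0.10, adjusted p = 0.000913), by log2 0.27 with quantile scaling (adjusted p = 0.0122). Delta 22 and wild-type libraries overlapped, and 1 of the 4 shared batches went the other way (log2 -0.04).

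ELF1 and ELF4 are related activators best known from blood cells. ELF1 had log2 values of 12.10, 12.55, 12.45 and 12.20 in delta 22 libraries, 12.01, 11.89 and 11.91 in mut9 libraries, 11.73, 12.15, 12.36, 12.01 and 12.05 in wild-type libraries, 12.36, 12.43, 12.53, 12.18 and 12.31 in knockdown libraries, and 11.30, 11.41, 11.53 and 11.41 in control libraries. As for ETV6, the control libraries lay below all others. ELF1 rose with knockdown (log2 0.95 ± 0.11, 1.93-fold, adjusted p = 1.56e-07) and fell with mut9 (log2 -0.42 ± 0.12, adjusted p = 0.00502). It fell with wild-type EWS/FLI by log2 -0.30 ± 0.10 (adjusted p = 0.0142), a call lost without wild-type replicate 1 (log2 -0.22, adjusted p = 0.0522) and with quantile scaling (log2 -0.18, adjusted p = 0.112). It remained above control in wild-type libraries (log2 0.65 ± 0.11, adjusted p = 9.81e-05).

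The difference of ELF1 between delta 22 and wild-type libraries was log2 0.26 ± 0.11 (adjusted p = 0.0379). It did not pass without delta 22 replicate 2 (0.19, adjusted p = 0.155) or 3 (0.22, adjusted p = 0.11), or without wild-type replicate 1 (0.18, adjusted p = 0.12), 4 (0.25, adjusted p = 0.0675) or 5 (0.26, adjusted p = 0.0576). It also did not pass with quantile scaling (0.10, adjusted p = 0.384), with no filter (adjusted p = 0.069) or with the compared groups only (adjusted p = 0.11). ELF1 shares 167 exonic bases with WBP4 on the opposite strand in GENCODE 29, and the strand setting of the counting is not given in the sources used here. WBP4 had mean log2 values of 10.90 in knockdown and 10.52 in control libraries, and its part in the ELF1 result was not tested. ETV5 shares 164 exonic bases with DGKG on the same strand (group means of log2 10.47 to 11.35). On the opposite strand, ETV4 shares 68 with DHX8 (11.20 to 11.53) and ELK3 shares 209 with AC008149.1 (3.48 to 4.01). The part of these overlaps was not tested either.

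ELF4 showed the second largest rise with knockdown (log2 1.61 ± 0.17, 3.06-fold, adjusted p = 6.7e-08). Its log2 values were 10.37, 10.53, 10.31 and 10.57 in delta 22 libraries, 9.72, 9.78 and 10.12 in mut9 libraries, 8.996, 8.99, 9.33, 9.18 and 9.53 in wild-type libraries, 10.30, 10.43, 10.44, 10.52 and 10.71 in knockdown libraries, and 8.13, 9.09, 9.20 and 9.05 in control libraries. The delta 22 and knockdown libraries overlapped at the top, the mut9 libraries lay below both and above the wild-type libraries without overlap, and the wild-type and control libraries overlapped at the bottom. ELF4 fell with wild-type EWS/FLI (log2 -1.27 ± 0.16, adjusted p = 1.17e-06), and delta 22 libraries stood 2.36-fold above wild-type libraries (adjusted p = 3.67e-06). It fell less with mut9 (log2 -0.61 ± 0.19, adjusted p = 0.0107), and mut9 libraries were above wild-type libraries (log2 0.67 ± 0.19, adjusted p = 0.0171). Without mut9 replicate 3 the first of these mut9 differences was log2 -0.53 (adjusted p = 0.0558), and without mut9 replicate 5 the second was log2 0.54 (adjusted p = 0.0897). Wild type minus control was log2 0.34 ± 0.17 (adjusted p = 0.121), and log2 0.34 with the replicate block (adjusted p = 0.049). Without control replicate 1, the lowest ELF4 value of all libraries, it was log2 0.09 (adjusted p = 0.584), and with array weights log2 0.13 (adjusted p = 0.429).

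ELK3, a ternary complex factor that binds beside serum response factor and represses until it is phosphorylated by ERK, rose with knockdown by log2 0.77 ± 0.09 (adjusted p = 3.18e-07). Its log2 values were 12.64, 12.51, 12.28 and 12.33 in delta 22 libraries, 12.03, 12.04 and 12.12 in mut9 libraries, 11.78, 11.65, 11.97, 11.71 and 11.87 in wild-type libraries, 12.75, 12.58, 12.66, 12.66 and 12.59 in knockdown libraries, and 11.56, 12.03, 12.01 and 11.92 in control libraries. The knockdown and delta 22 libraries lay above all others, and the wild-type and control libraries overlapped. ELK3 fell with wild-type EWS/FLI (log2 -0.85 ± 0.09, adjusted p = 6.21e-08) and with mut9 (log2 -0.58 ± 0.10, adjusted p = 7.36e-05). Wild type minus control was log2 -0.08 ± 0.09 (95% interval -0.27 to 0.11, adjusted p = 0.493; with array weights -0.20, adjusted p = 0.0274). Mut9 minus wild type was log2 0.27 ± 0.10 (adjusted p = 0.0657), with no overlap of the libraries. It was log2 0.31 (adjusted p = 0.0349) without wild-type replicate 3 and log2 0.27 (adjusted p = 0.0123) with array weights.

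GABPA, the ETS subunit of the GA-binding protein complex, which is known for control of mitochondrial and housekeeping genes, was the member that fell with knockdown. Its log2 values were 11.93, 11.93, 11.9965 and 11.91 in delta 22 libraries, 12.13, 12.17 and 12.27 in mut9 libraries, 12.19, 12.20, 11.98, 12.38 and 12.16 in wild-type libraries, 11.72, 11.82, 11.91, 11.76 and 11.89 in knockdown libraries, and 12.17, 12.18, 12.23 and 12.25 in control libraries. The knockdown libraries lay below all mut9, wild-type and control libraries, and they touched the range of the delta 22 libraries. The fall was log2 -0.39 ± 0.06, or 1.31-fold (adjusted p = 1.61e-05).

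GABPA rose with wild-type EWS/FLI (log2 0.36 ± 0.06, adjusted p = 2.77e-05) and with mut9 (log2 0.37 ± 0.07, adjusted p = 0.000182). Wild type minus control was log2 -0.03 ± 0.06 (95% interval -0.16 to 0.10, adjusted p = 0.754) and mut9 minus wild type log2 0.01 ± 0.07 (adjusted p = 0.957). With delta 22 the difference from knockdown was log2 0.12 ± 0.06 (adjusted p = 0.292), and delta 22 libraries were below wild-type libraries (log2 -0.24 ± 0.06, adjusted p = 0.00276; with quantile scaling -0.39, adjusted p = 3.55e-05). GABPA, whose window is printed above, shares 413 exonic bases with ATP5PF on the opposite strand. ATP5PF had mean log2 values of 10.71 in wild-type, 10.68 in knockdown and 10.94 in control libraries, and its part in the GABPA result was not tested.

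**Figure D2:**
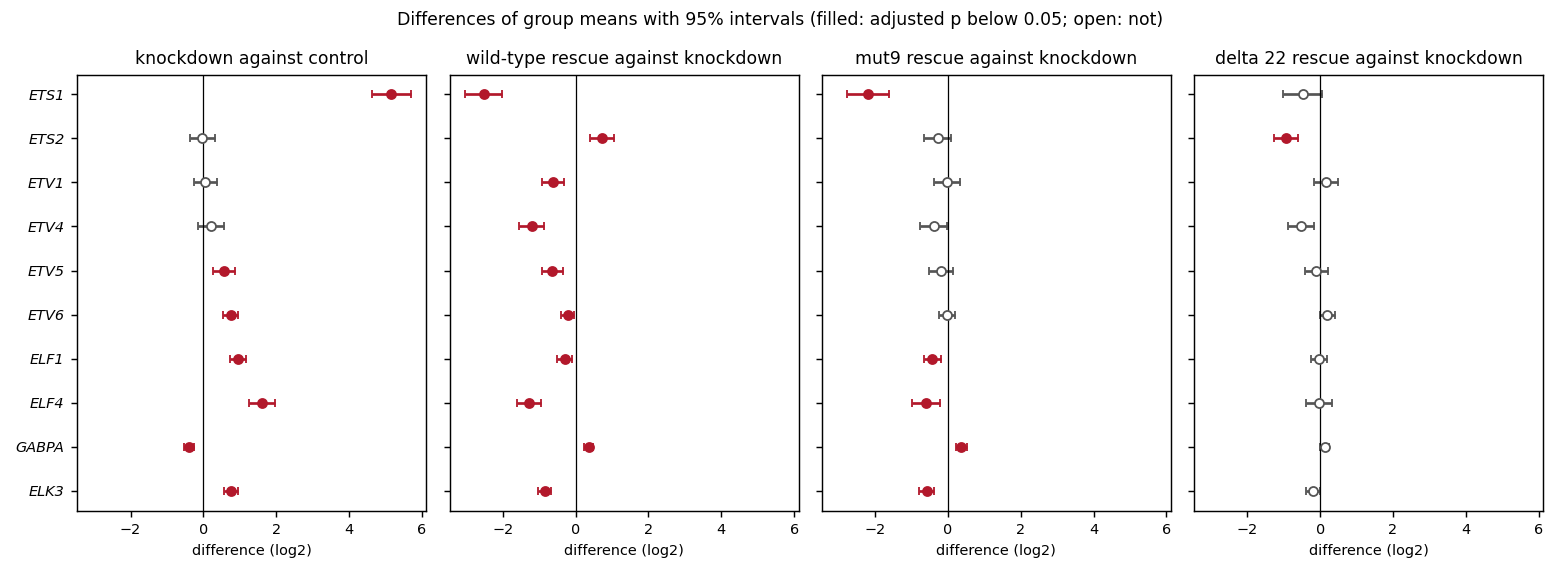
Log2 differences of group means (dots) with 95% intervals (bars) for the 10 members in 4 comparisons on a shared axis; filled red dots had adjusted p below 0.05 in limma and open dots did not. ETS1 lies far from the other members in the knockdown, wild-type and mut9 panels, while in the delta 22 panel ETS2 is the filled dot, at log2 -0.94.

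Set side by side, the constructs differed in how many members were called, and also in how many of all genes were called. For mut9 and delta 22 the member counts were close to the shares over all genes. The groups held 3 mut9, 4 delta 22 and 5 wild-type libraries, so the comparisons also differ in power. Wild-type EWS/FLI changed all 10 relative to knockdown, 2 higher and 8 lower, where 61.8% of all genes were called (29.6% higher, 32.3% lower). Among these, the ETV6 and ELF1 calls were lost under the settings given above for those genes. The wild-type and knockdown libraries did not overlap for 7 of the 10, beside 42.5% of all genes. Mut9 changed 5, 1 higher and 4 lower, where 48.6% were called (23% higher, 25.5% lower). The mut9 and knockdown libraries did not overlap for 5 members, beside 46.9% of all genes. Delta 22 changed 1, lower, where 2.24% of all genes were higher and 2.26% lower. The delta 22 and knockdown libraries did not overlap for 1 member, beside 8.36% of all genes. The count of calls was 2 with the replicate block and without knockdown replicate 5.

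In direct comparison, delta 22 and wild-type libraries differed for all 10 members, of which ELF1 was lost under the settings given above, 8 higher and 2 lower in delta 22 libraries, where 61.2% of all genes were called (31.7% higher, 29.5% lower). Their libraries did not overlap for 7 members, beside 47.3% of all genes. Mut9 and wild-type libraries differed for 4, with ETV1, ETV4 and ELF4 higher and ETS2 lower in mut9 libraries, where 18.8% of all genes were called (11.2% higher, 7.61% lower). Their libraries did not overlap for 5 members, beside 23.8% of all genes. Without wild-type replicate 3 this count was 5. The calls also moved under other settings. ETV5 and ELK3 passed with array weights, and ETV5 with the replicate block. ETV1 was lost without mut9 replicate 3 or 4, and ELF4 without mut9 replicate 5. The FLI1 value, which includes the constructs, was higher in delta 22 than in wild-type libraries (log2 0.80 ± 0.10, adjusted p = 9.63e-07), and higher within each of the 4 shared batches. The difference of FLI1 between mut9 and wild-type libraries was log2 -0.24 ± 0.11 (adjusted p = 0.124).

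Wild-type libraries differed from control libraries for 6 members, where 39.6% of all genes were called (21.3% higher, 18.3% lower). The libraries did not overlap for 6 members, beside 31.2% of all genes. ETS1, ETS2, ETV6 and ELF1 were higher and ETV1 and ETV4 lower, while ETV5, ELF4, GABPA and ELK3 did not pass. Of these 6, ETS1, ETV6 and ELF1 were also higher in knockdown than in control libraries. ETS2, ETV1 and ETV4 did not pass in that comparison, although ETV1 passed without knockdown replicate 5 and ETV4 with array weights.

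Levels of different genes were compared per kb of merged exons in GENCODE 29, on the linear scale of the normalized values and summed over FLI1 and the 10 members. This measure is approximate, because the length used is that of all annotated exons and the values have the form of regularized logarithms. The sum was 7224 ± 716 in delta 22 libraries (SD, n = 4), 5622 ± 21.04 in mut9 libraries (n = 3), 5539 ± 278 in wild-type libraries (n = 5), 8012 ± 472 in knockdown libraries (n = 5) and 4884 ± 72.5 in control libraries (n = 4). Each delta 22 and knockdown library had a higher sum than any library of the other 3 groups.

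ETS1 made up 18.3% of this sum in delta 22, 7.2% in mut9, 5.98% in wild-type, 22.9% in knockdown and 1.05% in control libraries. By mean level per kb it was the lowest of the 11 genes in control libraries and the highest in delta 22 and knockdown libraries. In delta 22 libraries this lead was not resolved. There the share of ETS1 (14.2% to 22.5%) overlapped those of ELK3 (15.2% to 19.3%) and ELF1 (14.2% to 18.3%). FLI1 made up 4.28% in delta 22, 2.62% in mut9, 3.17% in wild-type, 1.34% in knockdown and 7.98% in control libraries. The length used for FLI1 is that of the whole gene, while EWS/FLI holds only part of it, so the FLI1 shares are the more approximate. Of these 11 genes, GABPA had the highest mean share in control libraries with 17.9%, followed by ELK3 with 16.7%, but had 8.34% in knockdown libraries. The control shares of GABPA (17.6% to 18.3%) and ELK3 (13.4% to 18.7%) overlapped. ETS2 led the 11 in wild-type libraries with 19.4%, beside 4.72% in delta 22, 9.49% in mut9, 8.17% in knockdown and 13.5% in control libraries. The sum and shares leave out other expressed ETS genes, such as ERF, with mean log2 values of 12.36 in control and 12.75 in wild-type libraries. ETV4 stayed between 1.41% and 3.18% in all groups.

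**Figure D3:**
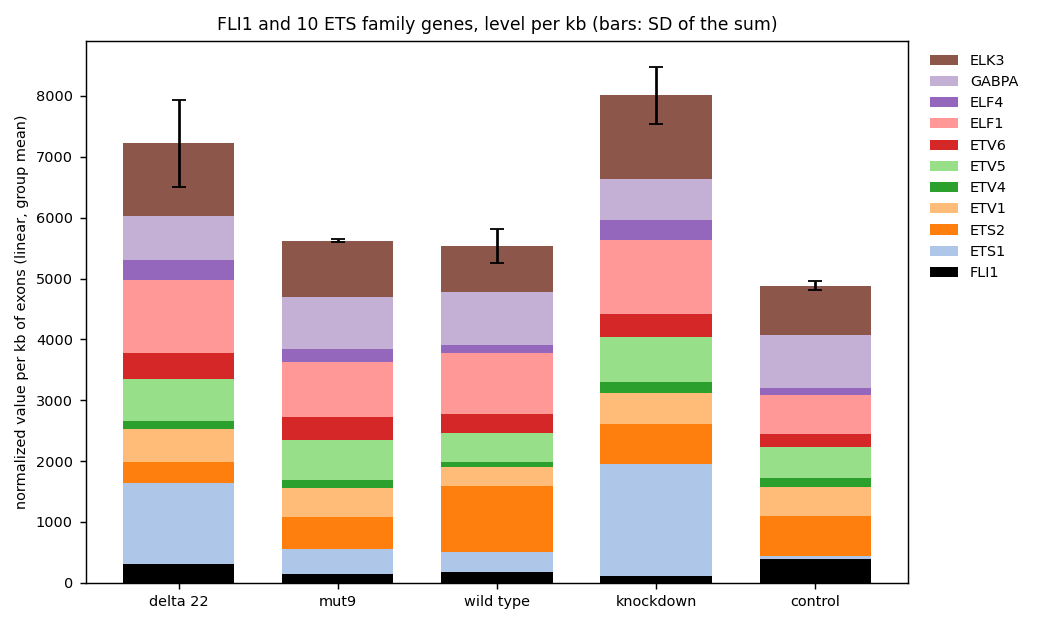
Stacked bars of the mean normalized value per kb of exons (linear scale) for FLI1 and the 10 members in each group; error bars are the SD of the summed value over libraries. The summed level is 8012 in knockdown and 7224 in delta 22 libraries, and 4884 in control libraries, and the ETS1 segment is widest in the knockdown bar.

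The ETS family has further genes, and 17 of them were listed from general knowledge, of which 11 passed the filter. In knockdown against control libraries 7 of these rose and 2 fell, where 69.5% of all genes were called (35.5% higher, 34% lower). The largest differences were in opposite directions. FEV, an ETS gene known from serotonin neurons and as a rare fusion partner of EWSR1, had log2 values of 3.31 to 4.31 in delta 22, 7.37 to 7.54 in mut9, 7.38 to 8.64 in wild-type, 3.47 to 3.79 in knockdown and 8.06 to 8.86 in control libraries. It fell with knockdown (log2 -4.83, adjusted p = 3.82e-12) and rose with wild-type EWS/FLI (log2 4.43 ± 0.24, adjusted p = 2.37e-11) and with mut9 (log2 3.89 ± 0.28, adjusted p = 2.1e-09). With delta 22 the difference was log2 0.24 ± 0.25 (adjusted p = 0.668). FEV values in delta 22 and knockdown libraries lie near the filter, where the deposited values are drawn together, so its fold changes are understated.

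EHF, an epithelial ETS gene, was high in knockdown libraries and unevenly so, at log2 7.11, 10.65, 8.998, 6.90 and 6.93, beside 3.26 to 3.60 in control libraries. It rose with knockdown (log2 4.68, adjusted p = 8.42e-06) and fell with wild-type EWS/FLI (log2 -4.51 ± 0.68, adjusted p = 9.75e-06). ERG, the closest relative of FLI1 and the second most common fusion partner of EWSR1 in Ewing sarcoma, rose with knockdown (log2 3.29, adjusted p = 1.9e-07) to log2 6.09 ± 0.74 in knockdown libraries (SD, n = 5), against 2.80 ± 0.09 in control libraries (n = 4). ETV7 rose as well (log2 3.15, adjusted p = 9.47e-06), with control values of log2 3.14 to 3.55, near the filter. ELF3 was at log2 2.89 to 6.03 in knockdown libraries, against 2.36 to 2.82 in control libraries. ELF3 reached the filter through knockdown libraries and 1 delta 22 library, so its difference follows in part from the filter, and its place among the 7 is no support. No control library reached the filter for ERG, while every library of the other 4 groups did. ELF2 fell with knockdown (log2 -0.28, adjusted p = 0.000331) and rose with wild-type EWS/FLI (log2 0.51 ± 0.06, adjusted p = 2.23e-07) and with mut9 (log2 0.67 ± 0.07, adjusted p = 1.16e-07).

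Wild-type EWS/FLI changed 8 of the 11, 3 higher and 5 lower, where 61.8% of all genes were called. Mut9 changed 6, 2 higher and 4 lower, where 48.6% were called. ELF3 reached the filter through knockdown libraries and 1 delta 22 library, so it is no support in these counts against knockdown either. With delta 22, limma called 0 of the 11 after adjustment, where 4.5% of all genes were called, and 4 at an unadjusted p below 0.05. The adjusted count was 1 with array weights, without delta 22 replicate 1 or without knockdown replicate 1. ETV3L, ELF5, SPI1, SPIB, SPIC and SPDEF did not reach the filter.

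**Figure D4:**
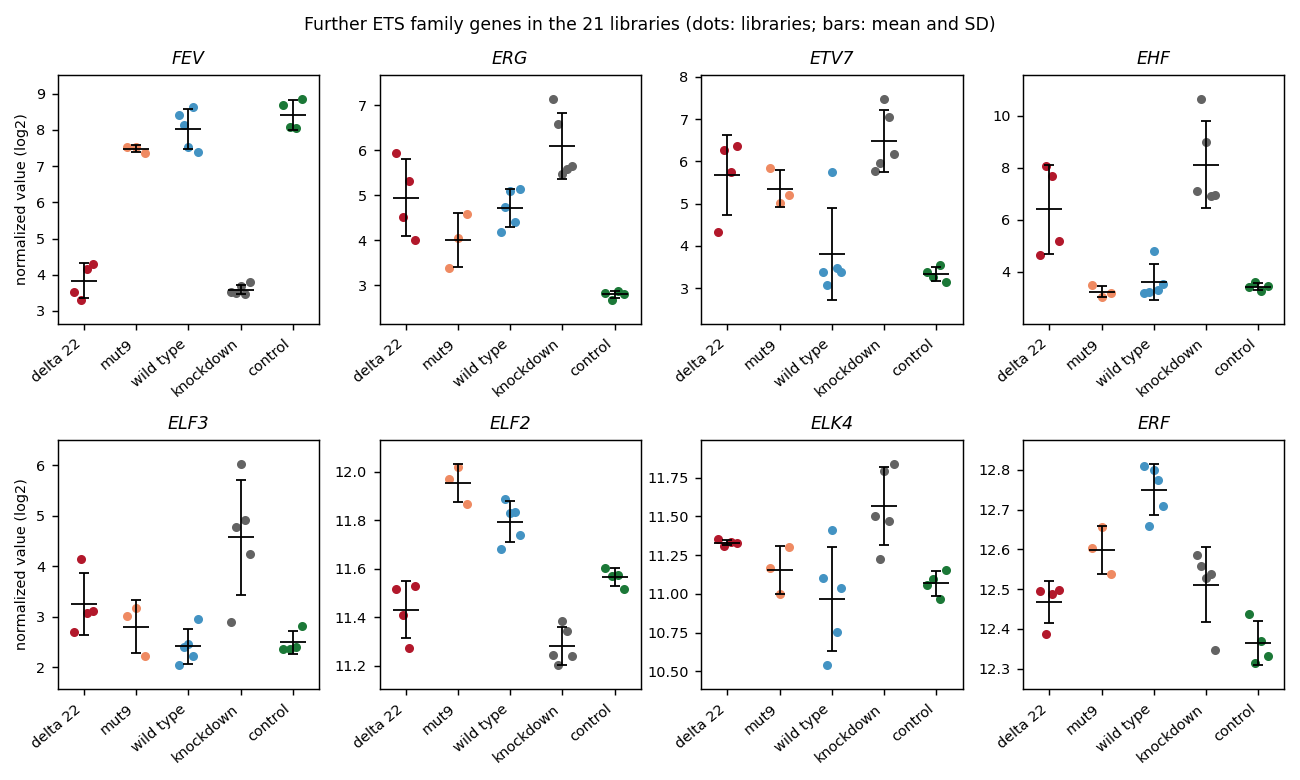
Normalized log2 values of 8 further ETS family genes in the 21 libraries, 1 panel per gene with its own axis; dots are libraries, and black bars give the mean and SD of each group. FEV lies at log2 3.31 to 4.31 in delta 22 and knockdown libraries and above 7 in the other 3 groups, while EHF and ERG are highest in knockdown libraries.

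ETV4 and ETV5 are commonly read together with genes that respond to ERK signalling, so 10 such genes were listed. The list was made with earlier results of these data known, so its counts and median are descriptions and no support. ERK activity itself was not tested. The sprouty genes SPRY2 and SPRY4, the phosphatase genes DUSP4 and DUSP6, PHLDA1, the receptor genes EPHA2 and EPHA4 and the sprouty-related genes SPRED1 and SPRED2 rose with knockdown, 9 of 10, with a list median of log2 1.43 beside -0.01 over all genes, of which 35.5% rose. CCND1, a cyclin gene, did not pass (log2 0.04, adjusted p = 0.768). PHLDA1 rose most (log2 6.22, adjusted p = 9.01e-13), followed by SPRY2 (log2 4.09, adjusted p = 1.24e-11). Wild-type EWS/FLI and mut9 each lowered 7 of the 10 and raised 1, where 32.3% of all genes fell with wild type and 25.5% with mut9. Delta 22 raised 1, SPRED1 (log2 0.39 ± 0.11, adjusted p = 0.0416), where 2.24% of all genes were higher. The count was 0 without any of delta 22 replicates 1 to 3 or knockdown replicates 2 to 5.

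With wild-type EWS/FLI, 8 of the ERK list genes were called against control, all higher, where 21.3% of all genes were higher, while ETV1 and ETV4 were lower and ETV5 did not pass. No test compared the list with the PEA3 genes.

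A list of 10 partners and regulators of ETS factors held 4 genes that rose and 1 that fell with knockdown, where 69.5% of all genes were called. ATXN1, which binds the capicua repressor, rose by log2 2.20 ± 0.14 (adjusted p = 4.44e-11), and CIC, capicua itself, by log2 0.51 ± 0.08 (adjusted p = 2.1e-05). TRIB2 (log2 2.13 ± 0.12, adjusted p = 1.27e-11) and TRIB1 (log2 0.87 ± 0.28, adjusted p = 0.00901), pseudokinases that guide the ubiquitin ligase COP1 to its substrates, rose too. GABPB2, a partner subunit of GABPA, fell with knockdown (log2 -0.46 ± 0.10, adjusted p = 0.000374) and rose with wild-type EWS/FLI (log2 0.66 ± 0.09, adjusted p = 4.95e-06) and with mut9 (log2 0.42 ± 0.11, adjusted p = 0.00316). SRF, the partner of ELK3, did not pass with knockdown (log2 -0.02, adjusted p = 0.856), nor did COP1 (log2 -0.07, adjusted p = 0.402).

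**Figure D5:**
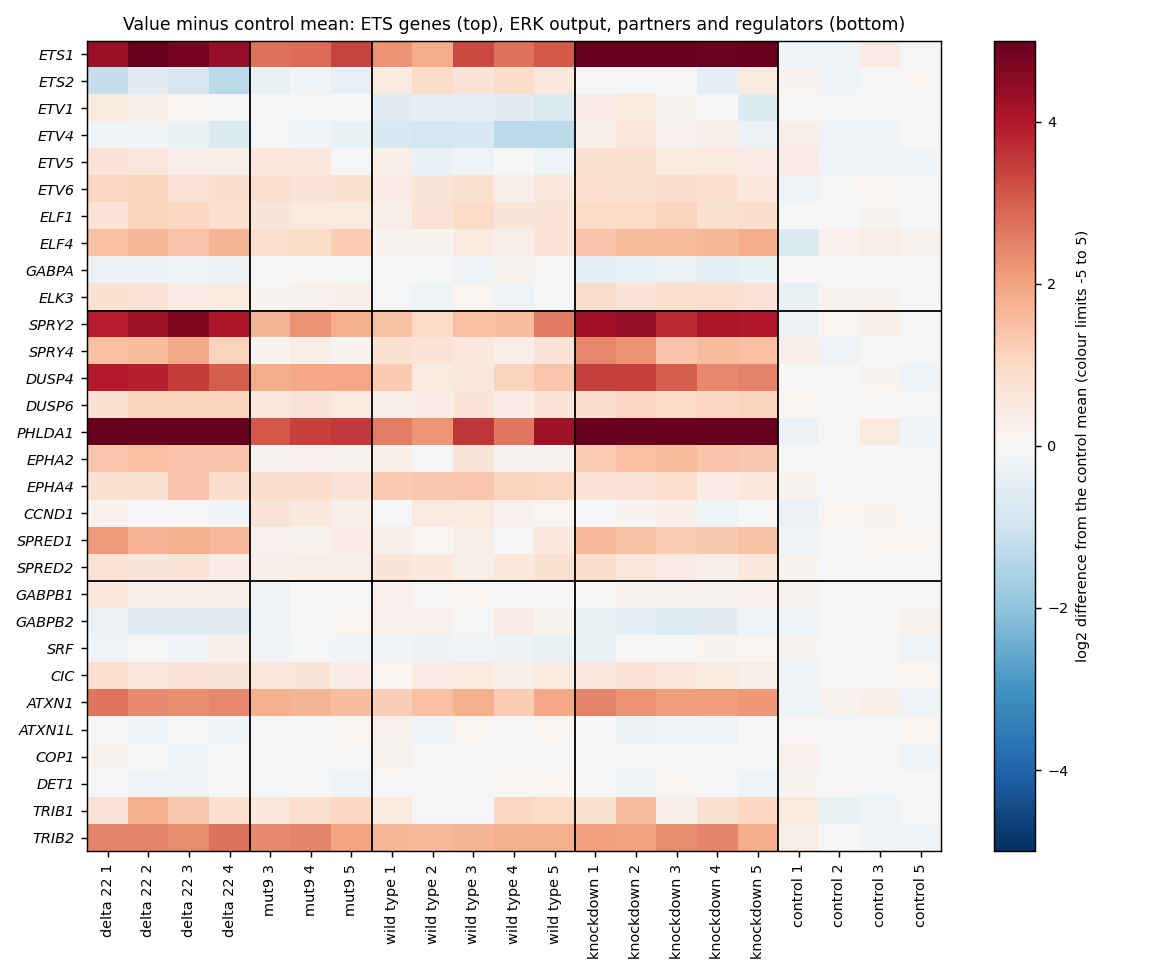
Log2 value minus the control mean of the same gene, for the 10 members (top), 10 ERK output genes (middle) and 10 partners and regulators (bottom) in the 21 libraries; red is above and blue below the control mean, and colours stop at -5 and 5. The rows of ETS1, SPRY2 and PHLDA1 are darkest in delta 22 and knockdown libraries and paler in mut9 and wild-type libraries.

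The genes most like ETS1 over the 21 libraries were SPHK1, a sphingosine kinase (Pearson r = 0.995), FOSL2, an AP-1 subunit (r = 0.989), PHLDA1 (r = 0.986), MICAL2, an enzyme that oxidises actin (r = 0.985), and ACSL5, an acyl-CoA synthetase (r = 0.985). SPHK1 had mean log2 values of 10.17 in delta 22, 8.54 in mut9, 8.30 in wild-type, 10.54 in knockdown and 5.80 in control libraries, the same order of groups as ETS1. Those most like GABPA were TBCCD1 (r = 0.951), TMEM70 (r = 0.944), MPHOSPH6 (r = 0.943), ULK3 (r = 0.935) and AMPD1 (r = 0.931). These coefficients describe libraries that share the 5 groups, so differences between groups enter them.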

How the data were processed

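The authors deposited 1 table of log2 values for 57820 genes in 21 libraries (ScriptSeq, 2.5 ug of total RNA). Bcl2fastq, STAR 2.5.2b, HTSeq, DESeq2 and hg19 are named in the submitters' processing notes. The deposited values (-4.09 to 20.2, low genes drawn together, 17358 genes at 0 in every library) have the form of regularized logarithms. No pseudocount was added, and depth is unknown. IDs were joined to symbols, with 51996 matched.

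Genes with a linear value of at least 10 in at least 3 libraries (18040) were fitted with limma 3.58.1 (trend, 1 mean per group, all libraries, R 4.3.3) in 7 comparisons, with Benjamini-Hochberg adjustment within each. The fit was tested on simulated data. Low values are compressed, so fold changes of low genes are understated.

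Named are the members, listed ETS, ERK output, partner and marker genes, and the 5 genes most correlated with the members of most positive and most negative knockdown difference. Members and lists were chosen with earlier results of these data known, and the lists come from general knowledge. Paired libraries share a number that the labels call the batch. For 34 such pairs the mean correlation of deviations was 0.20, and for other pairs it was -0.05. Alternatives were array weights, filters, scalings, a fit of the compared groups only, a replicate block and leaving out each library. The highest correlation between libraries was 0.998, with 0 identical values in that pair.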

Additional observations from a re-analysis of the deposited data

Results flagged for a closer look

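In groups of 4 or 5 libraries, a library was picked out where its gap to the nearest other library was large for the range of the group. Over 40 groups examined for the 10 members, 4 values were picked out, where chance gives about 1 in 20. ETS1 in knockdown replicate 5 was log2 14.19, above 13.46 to 13.64 in the other knockdown libraries. ETS1 in control replicate 3 was log2 8.92, above 8.30 to 8.40 in the other control libraries. ETV5 in control replicate 1 was log2 11.91, above 11.34 to 11.37 in the other control libraries. ELF4 in control replicate 1 was log2 8.13, below 9.05 to 9.20 in the other control libraries. Leaving out any 1 of these libraries left ETS1, ETV5 and ELF4 called in the same direction in the knockdown comparison.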

How the results depend on the processing

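The alternatives changed the sign of 33 of 1110 values of the members, over 11 of 70 differences, none called in either fit (largest absolute value 0.0900, smallest adjusted p = 0.591). With trimmed-mean scaling GABPA between mut9 and wild-type libraries was log2 -0.00259. Quantile scaling gave GABPA in that comparison -0.0207, ETV1 and ETV4 in knockdown against control -0.0654 and -0.0101, and ETV1 and ETV6 in mut9 against knockdown 0.0705 and 0.0361. Quantile scaling moved the median of all genes to -0.202 in knockdown against control and 0.12 in wild type against knockdown, and the share of calls that were higher was 38% in place of 51.1% and 59.5% in place of 47.8%. For mut9 against wild type this share was 43.9% in place of 59.5%, for wild type against control 42.7% in place of 53.7%, for delta 22 against wild type 41.9% in place of 51.9%, and for mut9 against knockdown 55.7% in place of 47.4%. With the replicate block ETS2 in knockdown against control was 0.00506, ELF4 in delta 22 against knockdown 0.0324, ETV1 in mut9 against knockdown 0.0843, and GABPA in mut9 against wild type -0.00826. With array weights ELF1 in delta 22 against knockdown was 0.00117, GABPA in mut9 against wild type -0.0477, and ETV5 and GABPA in wild type against control 0.0341 and 0.0104.

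Leaving out 1 library gave log2 -0.111 to 0.0392 for ELF1, -0.0801 to 0.0227 for ELF4 and -0.0193 to 0.258 for ETV1 in delta 22 against knockdown. It gave -0.145 to 0.0900 for ETS2 and -0.0423 to 0.235 for ETV1 in knockdown against control, and -0.208 to 0.0700 for ETV1 and -0.0942 to 0.0138 for ETV6 in mut9 against knockdown. It gave -0.170 to 0.0564 for ETV5 and -0.0768 to 0.0225 for GABPA in wild type against control, and -0.0425 to 0.0568 for GABPA in mut9 against wild type. The cause was not tested.

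Calls of members were lost in 25 cases (6 differences) and gained in 16 (8 differences). The members called in delta 22 against knockdown were 2 under the replicate block and under array weights, and 1 to 2 when 1 library was left out. Over all genes that comparison gave 811 calls, 1292 with the replicate block and 262 with the compared groups only, and mut9 against wild type gave 3390, and 5234 with array weights. Quantile scaling called 8 of the 10 partners and regulators in knockdown against control, in place of 5. Over all 18040 genes it called 13446 in that comparison, in place of 12537. Depth is unknown, so no limit from counting could be set.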
